A study of Mus musculus with 8 samples.

Results

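The small RNA controls of this PCR study are 6 non-coding RNAs, MammU6, U87, Y1, snoRNA135, snoRNA202 and snoRNA429, whose assays stand beside the miRNA assays as candidate normalizers. They were chosen by assay name, without the number that ends some names, and fill 11 of the 530 rows of the table. Panel 1 holds 5 of them and panel 2 all 6, since snoRNA429 was on panel 2 alone, and each control had 1 row on each panel that carried it. The 2 panels are the parts of the table before and after the place where assay names begin to recur. The tested tissue was atherosclerotic plaque (plaque 1 to 4, labelled as aortic root), set against arterial wall of normal morphology (undiseased 1 to 4, labelled as artery). All samples came from female apoe-/- mice, which lack apolipoprotein E, with a labelled age of 6 to 8 weeks and 3 months of high fat diet. The control tissue therefore carried the same mutation and diet. Tissue was cut by laser from sections of aortic roots and carotid arteries, at least 40 sections per mouse. The labels describe the samples as biological replicates, without stating if a mouse gave tissue to both groups. Plaque and the vessel it was cut from cannot be told apart.

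U6 is the small nuclear RNA of the spliceosome that pairs with the start of an intron. Y1 is a small cytoplasmic RNA, made like U6 by RNA polymerase III, that is bound by the Ro protein. The remaining controls are box C/D small nucleolar RNAs, which guide the methylation of ribose in ribosomal and other RNA and are mostly released from introns of host genes. Such RNAs serve as normalizers in miRNA PCR because they are abundant and of similar size, and their use assumes that they are equally abundant in the tissues compared.

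By name and synonym, all 6 were matched to RefSeq (GRCm38.p6). MammU6 was matched to Rnu6, of 107 nucleotides, and Y1 to Rny1, of 111 nucleotides. U87 is Snord87, of 74 nucleotides, which lies inside the genes Snhg6 and Mcmdc2. snoRNA135 is Snord65, of 57 nucleotides, inside 2410006H16Rik. snoRNA202 is Snord68, of 48 nucleotides, inside Rpl13, which encodes a ribosomal protein of the large subunit. snoRNA429 is Snord100, of 68 nucleotides, inside Rps12, which encodes one of the small subunit. RefSeq lengths are those of the annotated genes, and the stretch that each assay amplifies was not used here.

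The values are raw Ct, the number of PCR cycles needed to reach a threshold signal, so a late (high) Ct stands for less RNA. A well without amplification was listed at 40, and a Ct of 35 or above was counted as not detected. All 11 control rows were detected in all 8 samples, as were 124 of 517 miRNAs. The number of miRNAs detected ranged from 148 to 240 in plaque and from 227 to 288 in undiseased artery. The mean Ct of the 124 miRNAs was 28.0 ± 1.65 in plaque and 25.3 ± 0.885 in undiseased artery (SD, n = 4 each), a difference of 2.70 cycles (two-sided exact permutation p = 0.0571). Fewer cells, less RNA per cell and poorer RNA cannot be told apart in such samples. As a check of the tissue, the smooth muscle miRNAs miR-143 and miR-145 and the endothelial miR-126-3p and miR-126-5p were detected in all 8 samples. So were the leukocyte miRNAs miR-142-3p, miR-150 and miR-155. The leukocyte miR-142-5p was detected in 1 of 4 plaque and 4 of 4 undiseased samples. The leukocyte miR-223 and the erythrocyte miR-451 were detected in 3 of 4 plaque and 4 of 4 undiseased samples. In plaque 2, undiseased 2 and undiseased 3 miR-223 read Ct 10.3, 10.7 and 10.6. The other samples that detected it read 20.8 to 23.3. The heart muscle miRNA miR-208 was detected in 2 of 4 plaque samples (Ct 31.4 and 34.0) and in 0 of 4 undiseased samples. The other heart muscle markers, miR-208b and miR-499, were detected in none of the 8.

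In raw Ct every control RNA crossed the line later on average in plaque, by 0.58 to 3.94 cycles over the 11 rows. U87 had the largest difference on both panels and Y1 the smallest. On panel 1, U87 read 27.9, 25.6, 27.0 and 24.1 in plaque 1 to 4, against 22.4, 21.7, 21.9 and 22.9 in undiseased 1 to 4. Every plaque sample was later than every undiseased sample (difference 3.94 cycles, two-sided exact permutation p = 0.029, which is the smallest that 4 against 4 can give). On panel 2 the U87 values were 28.5, 25.9, 27.6 and 23.5 in plaque and 23.7, 23.0, 22.6 and 23.8 in undiseased artery. There plaque 4 lay within the undiseased range, and the difference of 3.08 cycles had an exact permutation p of 0.0857.

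The U6 assay amplified earliest of the controls, with panel 1 values of 19.6, 18.1, 18.9 and 13.5 in plaque and 15.6, 14.9, 14.5 and 15.9 in undiseased artery. Plaque 4 was thus the earliest of all 8 samples while the other plaque samples were the latest (difference 2.29 cycles, exact permutation p = 0.171). Its panel 2 values had the same order of groups, with a difference of 2.21 cycles (exact permutation p = 0.143).

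Y1 read 24.6, 24.6, 24.9 and 25.0 on panel 1 in plaque, against 23.8, 22.4, 22.9 and 24.7 in undiseased artery. Its plaque samples lay within 1 cycle of each other and overlapped undiseased 4 (difference 1.32 cycles, exact permutation p = 0.0857). On panel 2 the Y1 values were 23.5, 23.8, 24.8 and 22.5 in plaque and 23.7, 22.3, 22.5 and 23.7 in undiseased artery, a difference of 0.58 cycles (exact permutation p = 0.371).

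Among the nucleolar RNAs, snoRNA135 read 26.6, 24.9, 27.0 and 23.4 on panel 1 in plaque, against 23.1, 22.7, 22.3 and 23.0 in undiseased artery. The groups did not overlap (difference 2.70 cycles, exact permutation p = 0.029). snoRNA202, the earliest of the nucleolar RNAs, read 21.3, 20.9, 22.0 and 18.7 in plaque and 18.9, 17.6, 17.4 and 18.6 in undiseased artery on panel 1, with plaque 4 inside the undiseased range (difference 2.60 cycles, exact permutation p = 0.0571). snoRNA429, on panel 2, read 23.5, 22.2, 23.7 and 18.8 in plaque and 21.1, 19.9, 19.5 and 20.4 in undiseased artery (difference 1.81 cycles, exact permutation p = 0.171). Plaque 4 was the earliest sample of all for this RNA. On panel 2 the difference was 1.97 cycles for snoRNA135 and 2.25 for snoRNA202, with groups that overlapped.

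In all, 2 of 11 control rows separated the groups in raw Ct, against 34.8% of the 135 rows (miRNAs and controls) detected in all 8 samples that were later in every plaque sample. That count depended on plaque 4: without it, 9 of the 11 rows reached the exact permutation p of 0.029, and the 2 Y1 rows did not. U87 and snoRNA135 on panel 1 stay apart whichever sample is left out, but without any 1 undiseased sample their exact permutation p was 0.0571. The number of rows with an exact p under 0.05 was then 0 without undiseased 1, 2 or 3, and 1 (Y1 on panel 1) without undiseased 4. In limma's test of raw Ct, with p adjusted over 183 rows (172 miRNAs detected in at least 3 samples of each group, plus the controls), 4 of 11 control rows were called, all lower in plaque, against 47% of all rows tested. These were U87 on panel 1 (adjusted p = 0.00800) and panel 2 (adjusted p = 0.0296), snoRNA135 on panel 1 (adjusted p = 0.0329) and snoRNA202 on panel 1 (adjusted p = 0.0348).

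**Figure D1:**
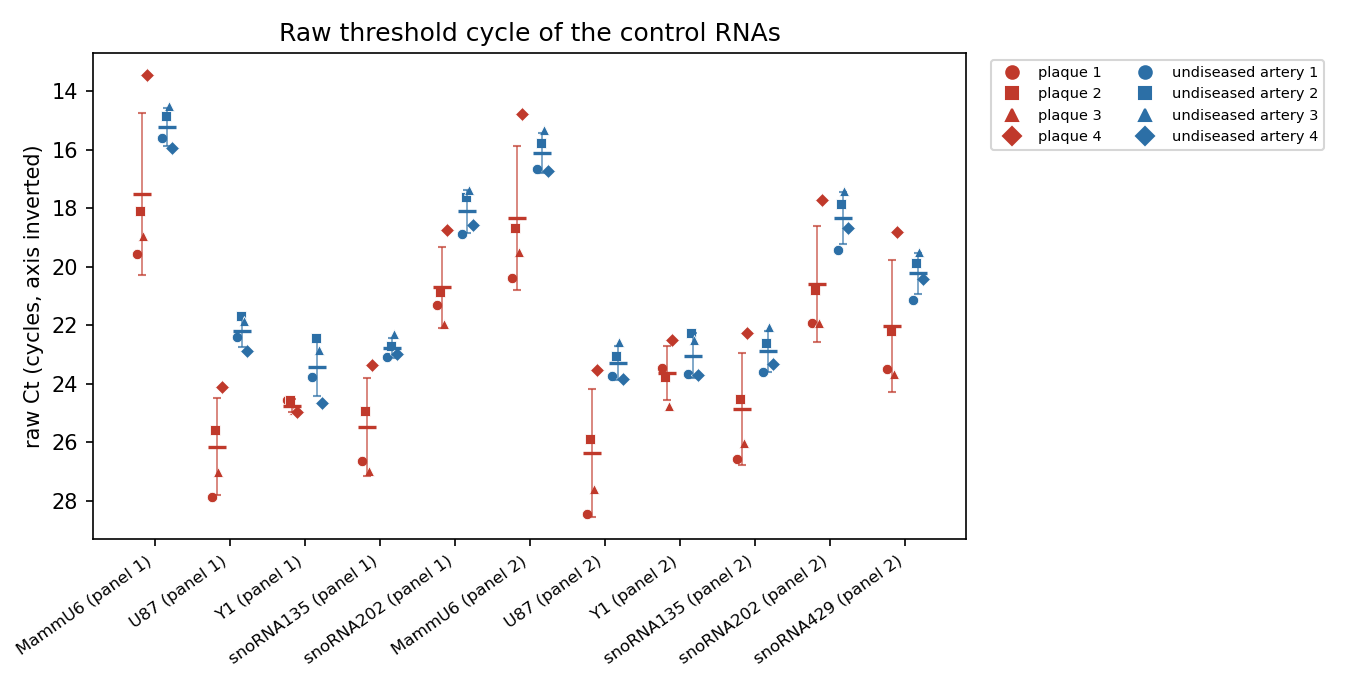
Raw Ct in cycles (axis inverted, so that more RNA is higher) of the 11 control rows, plaque left of undiseased artery. Symbols are samples, horizontal bars group means and error bars SD (n = 4); plaque 4 is the highest red point in most rows, and the Y1 samples of plaque lie close together on panel 1.

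Each sample was then centred on the mean Ct of the 124 miRNAs detected throughout, and the level of a control is the negative of its Ct minus that mean. Each cycle stands for a factor of 2 at full efficiency of amplification, and the efficiency of these assays was not measured. On this scale 1 of 11 control rows was called by limma, against 30.6% of the 183 rows tested, and at an unadjusted p under 0.05 the count was also 1, against 42.1%. The median log2 fold change was 0.45 over the 11 control rows and 0.09 over all 183 rows. Panel 2 holds a larger part of the control rows than of the tested miRNAs, so these shares and medians mix the panels unequally. The tested miRNAs had medians of -0.73 on panel 1 and 0.82 on panel 2. With each panel centred on its own miRNA mean, the medians were -0.20 over the control rows and -0.19 over all rows.

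The called row was Y1 on panel 2. Its levels were 3.67, 5.08, 5.16 and 3.74 in plaque and 1.34, 2.73, 2.18 and 2.93 in undiseased artery. This was the only control row whose groups did not overlap in level, against 31.1% of the 135 rows detected throughout (log2 fold change 2.12, a 4.34-fold higher level at full efficiency, SE 0.56, 95% interval 0.89 to 3.35, limma adjusted p = 0.0218). The call was lost when each panel was centred on its own miRNA mean (log2 fold change 1.04, adjusted p = 0.125, with 0 of 11 control rows called against 19.1% of all rows, and 2 of 11 at an unadjusted p under 0.05), after quantile normalization (1.49, adjusted p = 0.0680), and in raw Ct, where the sign turned. It was also lost without undiseased 1, 2 or 3. The separate well of Y1 on panel 1 gave levels of 2.57, 4.27, 5.03 and 1.28 in plaque and 1.25, 2.56, 1.84 and 1.98 in undiseased artery. Plaque 4 fell among the undiseased samples there, and the difference did not pass (log2 fold change 1.38, SE 0.76, limma adjusted p = 0.193). Without plaque 4 this row was called (2.05, adjusted p = 0.0339).

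The other controls had differences in level that did not pass the test, with wide intervals. U6 had levels of 7.55, 10.7, 11.0 and 12.8 on panel 1 in plaque, against 9.41, 10.1, 10.2 and 10.7 in undiseased artery. Its plaque samples surrounded the undiseased ones on both sides (log2 fold change 0.41, 95% interval -1.59 to 2.42, limma adjusted p = 0.739). U87 on panel 1 had levels of -0.759, 3.25, 2.92 and 2.13 in plaque and 2.61, 3.32, 2.82 and 3.75 in undiseased artery. Plaque 1 stood far below the rest (log2 fold change -1.24, 95% interval -2.99 to 0.51, adjusted p = 0.258), and without it the difference was -0.36.

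snoRNA202 on panel 1 had levels of 5.83, 7.99, 7.96 and 7.53 in plaque and 6.14, 7.38, 7.31 and 8.08 in undiseased artery. The groups overlapped almost throughout (log2 fold change 0.10, 95% interval -1.26 to 1.46, limma adjusted p = 0.906). snoRNA135 on panel 1 differed by -0.01 (95% interval -1.59 to 1.57) and on panel 2 by 0.73 (95% interval -1.05 to 2.51). The panel 2 row of snoRNA135 was called without plaque 1 (1.61, adjusted p = 0.0479). snoRNA429 differed by 0.88 (95% interval -0.88 to 2.65), and by 0.39 without plaque 4 to 1.67 without plaque 1 when a sample was left out. Each of these intervals holds a difference of at least 1 cycle in one direction or the other, so equal abundance in the tissues was not shown for any control.

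**Figure D2:**
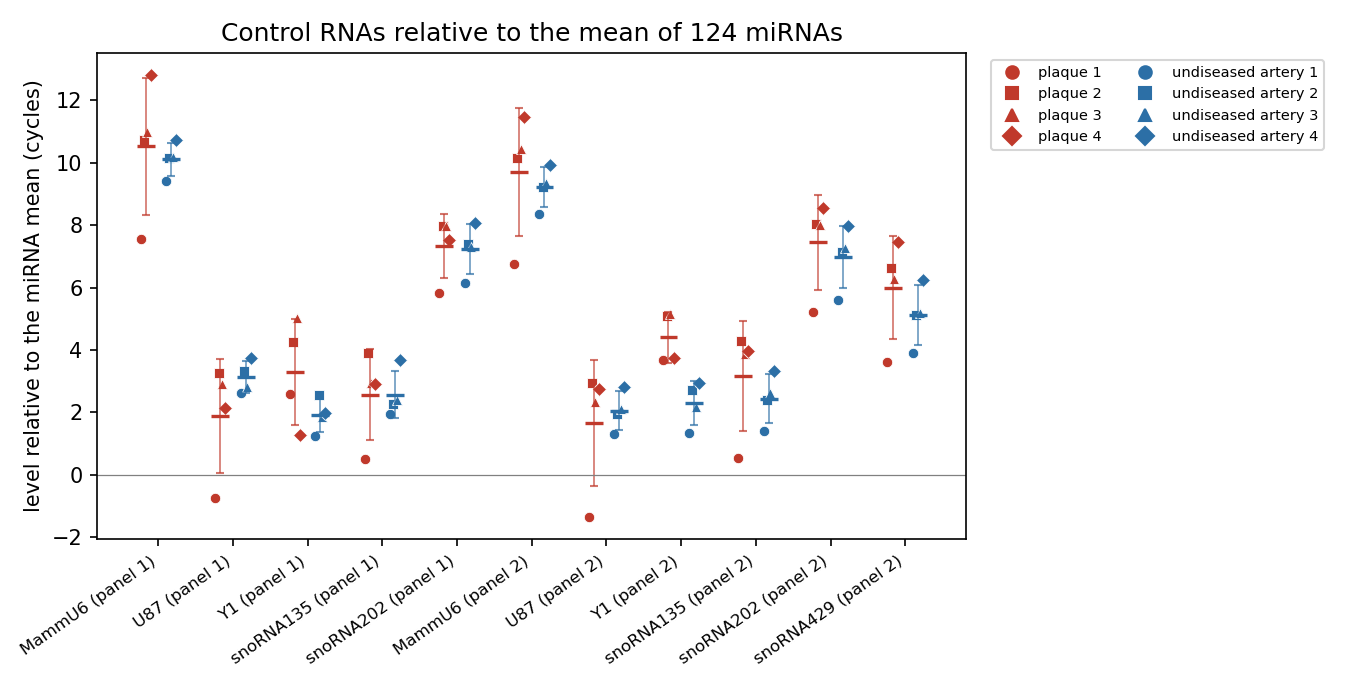
Level of each control row relative to the mean of 124 miRNAs, in cycles, plaque left of undiseased artery. Symbols are samples, horizontal bars means and error bars SD (n = 4); the groups are apart for Y1 on panel 2 and overlap in the other 10 rows, and plaque 1 is the lowest plaque point in all rows but Y1 on panel 1.

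As a measure of steadiness, the SD of the level over the 8 samples was compared with that of the 124 miRNAs, as a description. The steadiest control row was snoRNA202 on panel 1, with an SD of 0.851 cycles, and 38 of 124 miRNAs had a lower one. The same RNA on panel 2 had 1.21 cycles, with 75 of 124 miRNAs lower. The centre mixes miRNAs of both panels, and the part of the panel in these SDs was not tested. U6 on panel 1 was the least steady, with an SD of 1.49 cycles, and 96 of 124 miRNAs had a lower one. The remaining rows lay between 1.08 cycles, for snoRNA135 on panel 1, and 1.43 cycles, for U6 on panel 2, while the median miRNA had 1.09 cycles. In level, the spread of all 11 rows was wider among plaque samples than among undiseased samples. U6 on panel 1, for example, had an SD of 2.19 cycles in plaque and 0.535 cycles in undiseased artery. In raw Ct the order was another: Y1 had the lowest SD of the controls, 0.970 cycles on panel 1 and 0.843 cycles on panel 2, and only 10 and 8 of 124 miRNAs had a lower one. By that measure U87 on panel 1 was widest, at 2.39 cycles. The SD over all 8 samples includes the difference between the tissues. Within groups, the SD of the level was lowest for Y1 on panel 2, at 0.768 cycles, with 55 of 124 miRNAs lower. It was 0.918 cycles for snoRNA202 on panel 1, with 79 of 124 miRNAs lower, and the median miRNA had 0.807 cycles.

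A list of 17 miRNAs in use as reference miRNAs was set beside the controls. The table held all 17, 14 were tested and 12 were detected in all 8 samples. The level SD of those 12 ranged from 0.586 cycles, for miR-30e, to 1.39 cycles, with a median of 0.833 cycles. Of the 14 tested, 0 were higher and 3 lower in plaque, against 15.3% of all rows in each direction: miR-26a, miR-26b and miR-30a, with log2 fold changes of -2.11, -2.43 and -1.33. The median log2 fold change was -0.90 over the 14 and -0.11 over the 172 miRNAs. All 17 of the list are on panel 1. The median there was -0.73 over the 109 miRNAs tested, and on panel 2 it was 0.82 over 63. The shares of all rows and the median of -0.11 cover both panels, so they are no background for panel 1 alone. miR-720, an assay name whose sequence has since been assigned to a transfer RNA fragment, rose in plaque in level over the miRNA mean (log2 fold change 2.49, SE 0.45, limma adjusted p = 0.00453). With the mean of the controls as reference miR-720 was not called (2.01, adjusted p = 0.247), and in raw Ct its log2 difference was -0.20.

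The controls were next set against each other within each panel, which needs no miRNA mean. There were 25 pairs, and the difference of Ct between the 2 RNAs of a pair was compared between tissues by exact permutation, unadjusted. In 6 of 25 pairs the groups did not overlap (exact permutation p = 0.029), against 30.3% of the 4182 pairs that the 124 miRNAs form within panels. All 6 involved U87, which takes part in 9 of the 25 pairs, and 0 of the 16 other pairs separated the groups. This pattern was noticed after the values were seen, the pairs share the U87 wells, and whether U87 stands apart from the other controls was not tested.

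In all 9 pairs U87 was lower in plaque, by 0.83 to 2.62 cycles. On panel 1, the level of U87 over snoRNA135, a fellow box C/D RNA, was -1.25, -0.667, -0.0230 and -0.769 cycles in plaque, against 0.679, 1.04, 0.437 and 0.0760 cycles in undiseased artery. On panel 2 it was -1.88, -1.37, -1.55 and -1.24 cycles in plaque and -0.119, -0.440, -0.518 and -0.508 cycles in undiseased artery. No sample crossed over on either panel, and the differences were -1.23 and -1.11 cycles, a 2.35-fold and a 2.16-fold lower ratio in plaque at full efficiency. The panel 2 difference kept an exact permutation p of 0.029 in all 8 leave-one-out comparisons, and the panel 1 difference in 3 of 8, with 0.0571 as the highest p.

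U87 over snoRNA202 on panel 1 was -6.59, -4.74, -5.04 and -5.40 cycles in plaque, against -3.53, -4.07, -4.49 and -4.33 cycles in undiseased artery. The groups were apart there (difference -1.34 cycles), while on panel 2 plaque 2 lay inside the undiseased range (difference -0.83 cycles, exact permutation p = 0.114). U87 over snoRNA429 was -4.97, -3.70, -3.93 and -4.73 cycles in plaque and -2.60, -3.17, -3.08 and -3.41 cycles in undiseased artery, again with no overlap (difference -1.26 cycles). Against the RNA polymerase III transcripts, U87 was also apart in the pair with U6 on panel 1 (1.65 cycles in favour of U6) and in the pair with Y1 on panel 2 (2.50 cycles in favour of Y1). In the pairs of U87 with U6 on panel 2 and with Y1 on panel 1 the groups overlapped (exact permutation p = 0.0857 and 0.0571). The 5 pairs other than U87 and snoRNA135 on panel 2 that separated the groups each went to a p of 0.0571 without at least 1 of the samples.

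**Figure D3:**
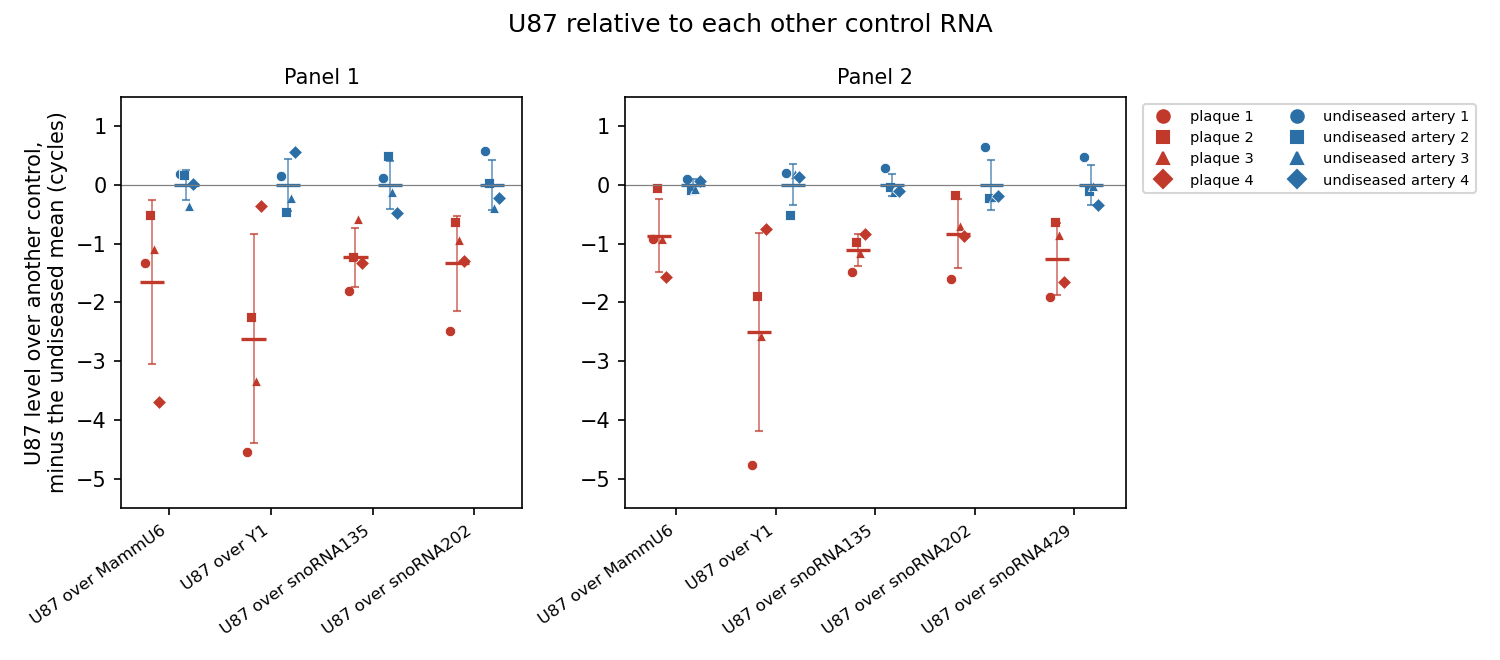
Level of U87 over each other control on the same panel, in cycles, shifted so that the undiseased mean is 0, plaque left of undiseased artery. Symbols are samples, horizontal bars means and error bars SD (n = 4); plaque means lie below 0 in all 9 pairs, and plaque and undiseased samples do not overlap in 6 of them.

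The pairs also show which controls moved together over the samples. Pairs without Y1 had a median SD of 0.954 cycles on panel 1 and 0.469 cycles on panel 2, over 8 samples. Pairs with Y1 had 1.66 cycles on panel 1 and 1.28 cycles on panel 2. The SD over all 25 pairs ranged from 0.318 to 2.01 cycles. Y1 over U6, both RNA polymerase III transcripts, was -4.98, -6.48, -5.96 and -11.5 cycles in plaque on panel 1, against -8.16, -7.58, -8.34 and -8.74 cycles in undiseased artery. Plaque 4 was lowest of all samples for this pair and the other plaque samples were the highest. snoRNA202 over snoRNA429, whose host genes both encode ribosomal proteins, was 1.58, 1.41, 1.73 and 1.09 cycles in plaque and 1.71, 2.00, 2.08 and 1.73 cycles in undiseased artery.

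Since 5 controls were measured on both panels, their Ct on panel 2 minus that on panel 1 compares the panels on the same RNA. For U6 this was 0.808, 0.589, 0.562 and 1.34 cycles in plaque and 1.05, 0.924, 0.821 and 0.788 cycles in undiseased artery, with no difference detectable at 4 against 4 (-0.07 cycles, exact permutation p = 0.743). For U87 it was 0.583, 0.316, 0.581 and -0.600 cycles in plaque and 1.32, 1.36, 0.707 and 0.931 cycles in undiseased artery. The U87 groups did not overlap (-0.86 cycles, exact permutation p = 0.029), though the p was 0.0571 without plaque 4 and 0.0857 without undiseased 1 or undiseased 2.

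For Y1, snoRNA135 and snoRNA202 the panel difference was lower in plaque by -0.74, -0.74 and -0.35 cycles, with exact permutation p of 0.257, 0.0857 and 0.371. The widest single value was that of Y1 in plaque 4, at -2.46 cycles. Without plaque 1, snoRNA135 (-0.93 cycles) and snoRNA202 (-0.60 cycles) also reached a p of 0.029, which makes 3 of 5 controls with U87. The mean of the 5 controls, for which no test was made, was 0.175, -0.0694, 0.0066 and -0.762 cycles in plaque and 0.669, 0.451, 0.194 and 0.246 cycles in undiseased artery. Its groups did not overlap, by a narrow gap, with a difference of -0.55 cycles.

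The means of the miRNAs on the panels moved further. The panel 2 mean of 42 miRNAs minus the panel 1 mean of 82 was 0.119, -0.573, -1.45 and -0.00357 cycles in plaque, against 1.32, 1.23, 1.37 and 0.696 cycles in undiseased artery. The groups did not overlap (-1.63 cycles, exact permutation p = 0.029), whichever sample was left out. The panels hold different miRNAs, so this value, unlike that of a control, does not compare like with like. The miRNA difference minus that of a control was itself tested: against U6 the groups did not overlap (-1.56 cycles, exact permutation p = 0.029), and against U87, Y1, snoRNA135 and snoRNA202 it was -0.77, -0.89, -0.89 and -1.28 cycles, with p of 0.114 to 0.314. Whether the panels were run or amplified apart is not given in the sources used here, and its part in these values was not tested.

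**Figure D4:**
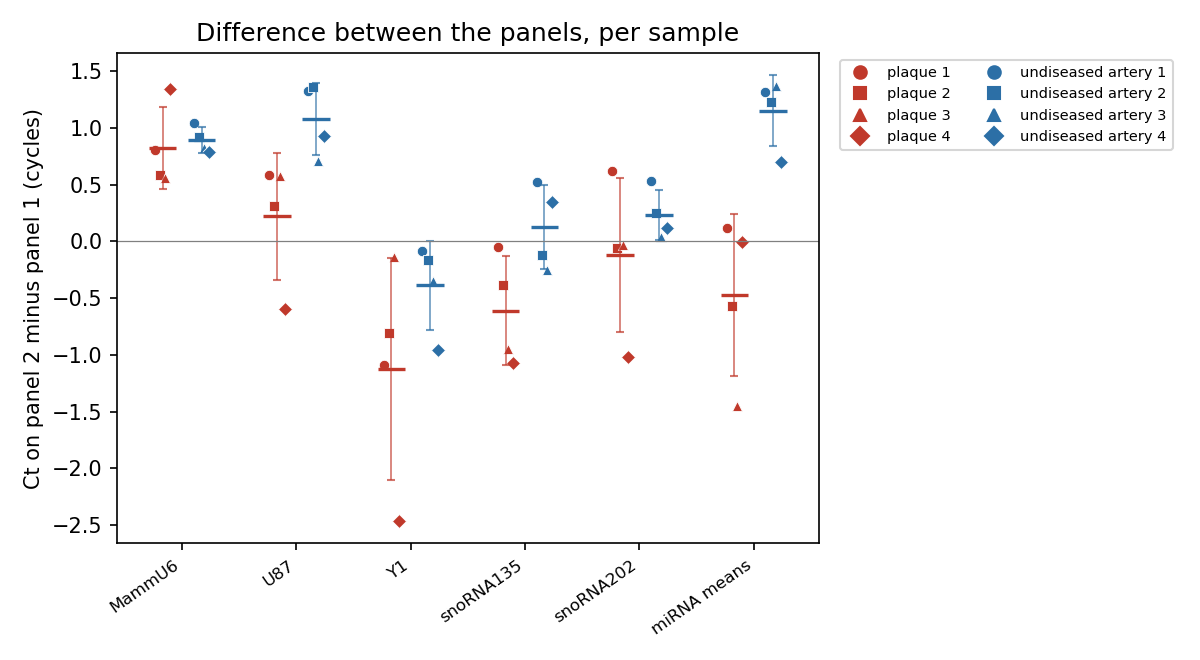
Ct on panel 2 minus Ct on panel 1, in cycles, for the 5 controls on both panels and for the means of the miRNAs detected in all samples (42 on panel 2, 82 on panel 1), plaque left of undiseased artery. Symbols are samples, horizontal bars means and error bars SD (n = 4); the groups are apart for U87 and the miRNA means.

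The choice of control decided how many of the 172 miRNAs were called. With the mean of the 6 controls as reference, each control first averaged over its panels, limma called 2 miRNAs (1.16%), 0 higher and 2 lower in plaque, and 37 had an unadjusted p under 0.05. Both belong to a co-transcribed pair known for its abundance in smooth muscle. miR-145 had a log2 fold change of -5.79 (SE 1.10, limma adjusted p = 2.87e-05). miR-143 had one of -5.43 with the same SE (adjusted p = 7.69e-05). With the mean of the 124 miRNAs as reference, 59 were called, 27 higher and 32 lower. The median SE was 1.10 with the controls and 0.583 with the miRNA mean.

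With 1 control at a time, U6, snoRNA135 and snoRNA429 each gave 2 calls, both lower. snoRNA202 gave 4, with 2 in each direction, U87 gave 17, of which 15 were higher, and Y1 gave 61, all lower. The median log2 fold change of the 172 miRNAs was 0.89 over U87, -0.27 over snoRNA202, -0.37 over snoRNA135, -0.44 over U6, -0.97 over snoRNA429 and -1.66 over Y1. All 6 controls called miR-143 and miR-145 and no other miRNA, out of 76 called with at least 1 of them.

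Plaque 1 decided the count with the mean of the controls: without it, 61 miRNAs were called, 3 higher and 58 lower. Without any other sample the count was 2 to 4. Plaque 1 was also the sample with the lowest weight when limma weighted samples by their residual spread (0.102, the others 0.401 to 5.33), and 95 miRNAs were called in that fit. The median log2 fold change was -1.07 for the 109 miRNAs on panel 1 and 0.38 for the 63 on panel 2 with the mean of the controls. Without plaque 1 these medians were -2.07 and -0.04, and that of all 172 miRNAs was -1.29, against -0.45 with all samples. When each panel was centred on its own controls, the medians were -0.66 and 0.15, and 5 miRNAs were called.

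**Figure D5:**
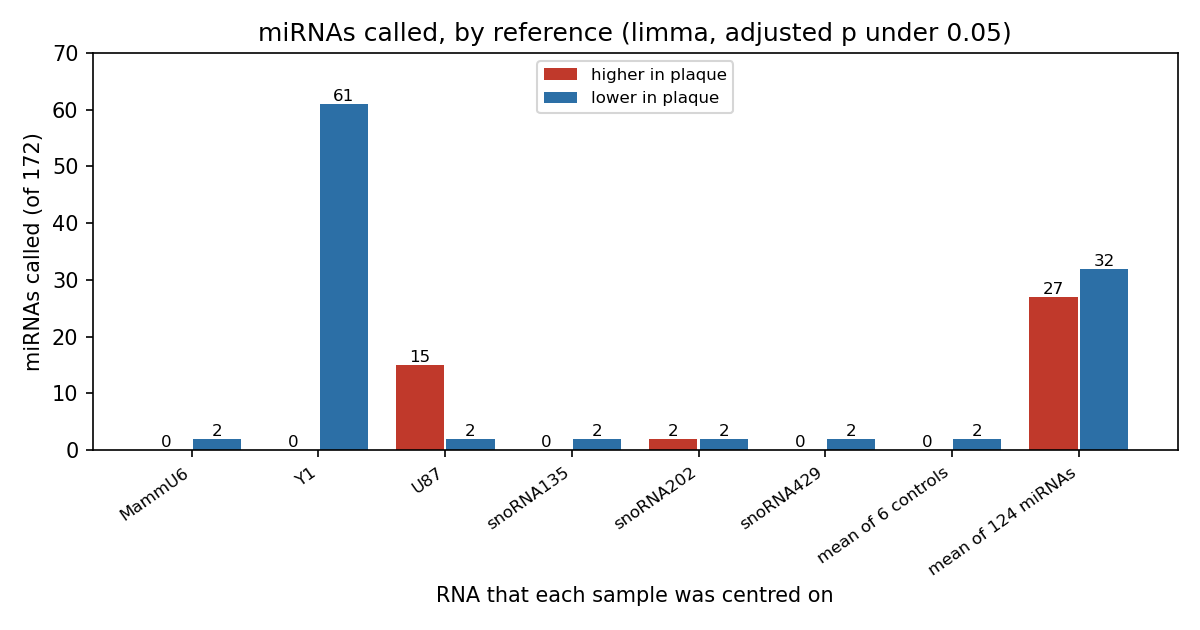
Number of the 172 tested miRNAs called by limma (adjusted p under 0.05) as higher (red) or lower (blue) in plaque, by the RNA on which each sample was centred. Y1 gives 61 lower and 0 higher, U87 gives 15 higher and 2 lower, and the mean of 124 miRNAs gives 27 higher and 32 lower.

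For each control, Ct was averaged over the panels that carried it. The 3 miRNAs whose Ct difference from that mean had the smallest SD over the 8 samples were taken as nearest among the 124. This is a description, and the miRNAs and controls share samples and RNA amount. All of the nearest miRNAs but miR-186 are on panel 2, which holds 42 of the 124. The part of the panel in this nearness was not tested. miR-709 was nearest to U6 (SD 0.859 cycles), snoRNA135 (0.512), snoRNA202 (0.484) and snoRNA429 (0.657) and came after miR-214* for U87 (0.953). The median SD over the 124 miRNAs was 1.54 to 1.87 cycles, depending on the control. miR-709 read 19.0, 18.7, 19.6 and 16.0 in plaque and 16.3, 16.1, 16.0 and 16.1 in undiseased artery in raw Ct. It was later in plaque 1 to 3 than in undiseased artery, and in plaque 4 it lay close to the undiseased samples.

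miR-709 was not among the nearest of Y1, which were miR-467b* (SD 0.438 cycles), miR-466d-3p (0.529) and miR-699 (0.580). Of these, miR-699 was also among the nearest of snoRNA429 (0.937). The nearest, miR-467b*, read 29.7, 29.7, 29.4 and 29.1 in plaque and 29.0, 28.3, 28.3 and 30.0 in undiseased artery, a narrow range with overlapping groups. miR-214* was nearest to U87 (0.922), and miR-22 was among the nearest of U87 (1.15), snoRNA135 (0.888) and snoRNA202 (0.694). miR-760 was among the nearest of snoRNA135 (0.779) and snoRNA202 (0.786), miR-186 and miR-700 of U6 (0.973 and 1.01), and miR-34c* of snoRNA429 (0.930). Of the 10 miRNAs named here, 6 were matched to RefSeq (GRCm38.p6), reading the old assay names as the strands given below. Their mature sequences are shown so that the assays nearest to the controls can be identified, 5′ to 3′ with the seed (bases 2 to 8) in capitals, and the 6 seeds all differ.
miR-214-5p: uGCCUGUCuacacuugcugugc
miR-22-3p: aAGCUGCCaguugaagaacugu
miR-760-3p: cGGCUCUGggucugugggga
miR-186-5p: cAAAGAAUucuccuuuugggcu
miR-700-3p: cACGCGGGaaccgaguccacc
miR-34c-3p: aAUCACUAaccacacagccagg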

How the data were processed

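The authors deposited raw Ct values of real-time PCR, with no sign of normalization or filtering. How RNA was reverse transcribed, preamplified and read is not stated in the sources. The labels name the RecoverAll kit and the dye FAM. Of 4240 wells, 2249 held a 40. The plant control assay read 40 in every well. The title of plaque 4 calls it replicate 4 and its description replicate 3, and the title was used.

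The test across rows was limma's moderated fit (version 3.58.1, R 4.3.3) with group as the only term and undetected values missing, with Benjamini-Hochberg adjustment over 183 rows, or over 172 miRNAs where controls were the reference, and 0.05 as the threshold. With the mean of the controls as reference, limma estimated 1 spread shared by all miRNAs, though not in every alternative fit (among others not with Y1 alone, without plaque 1 or with array weights). An error in the reference moves all miRNAs together. A single shared spread was also estimated with U6, U87, snoRNA135, snoRNA202 or snoRNA429 alone, and with each panel's own controls. The p-values of these fits and with the mean of the controls treat the shared spread as known without error. Few samples gave it, so these p-values can be too small. Single quantities were compared by two-sided exact permutation over 70 arrangements, unadjusted. The fit was tested on simulated levels relative to the miRNA mean, with errors independent between rows. The fits with controls as reference were not simulated.

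The named miRNAs are the 3 nearest to each control, those called with the mean of the controls, the reference miRNAs and miR-720, with marker miRNAs as a check of tissue. The members and lists were chosen with earlier results of these data known. The samples were not treated as paired, since the labels do not state if same-numbered samples came from the same mouse. The correlations of same-numbered deviations (0.13, 0.19, -0.24 and -0.16) cannot settle this.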

Additional observations from a re-analysis of the deposited data

Results flagged for a closer look

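Of 104 groups of 4 values examined, 6 held a sample far from the other 3 by Dixon's test, and chance flags about 1 in 20. On panel 2, plaque 1 stood below the other plaque samples in the level of U87 (-1.34, the others 2.34 to 2.93), of snoRNA135 (0.536, the others 3.89 to 4.30) and of snoRNA202 (5.20, the others 7.99 to 8.55). These 3 share the sample and its miRNA mean. Undiseased 1 stood apart in the panel 2 difference of U6 over snoRNA202 (2.76 cycles, the others 1.97 to 2.09) and of U87 over snoRNA202 (-4.31 cycles, the others -5.17 to -5.14). Undiseased 2 stood apart in that of Y1 over U87 (0.767 cycles, the others 0.0450 to 0.114).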

How the results depend on the processing

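Of 198 values of control level under an alternative, 156 kept direction and side of the threshold, 5 lost a call, 5 gained one and 32 changed sign. The count of called control rows, 1, was 0 with panels centred on their own mean, with quantile normalization and with both panels averaged, 4 in raw Ct, and 0 to 2 with a sample left out. Raw Ct turned the sign of U6 (-2.29 and -2.21 on panels 1 and 2), Y1 (-1.32 and -0.58), snoRNA202 (-2.60 and -2.25), snoRNA135 on panel 2 (-1.97) and snoRNA429 (-1.81). Centring by panel turned snoRNA135 (0.54 and -0.35), and on panel 2 U6 (-0.60), snoRNA202 (-0.63) and snoRNA429 (-0.20). Quantile normalization turned U6 (-0.36 and -0.0074), snoRNA202 (-1.03 and -0.15) and snoRNA429 (-0.019). Array weights turned U6 (-0.27 and -0.12) and snoRNA202 on panel 1 (-0.095). On panel 1, a cutoff of 32 turned snoRNA202 (-0.10) and one of 38 snoRNA135 (0.094). With a sample left out, U6 ran from -0.35 to 1.40 on panel 1 and from -0.11 to 1.47 on panel 2, snoRNA202 from -0.27 to 0.60 and from -0.011 to 1.20, snoRNA135 on panel 1 from -0.46 to 0.68 and U87 on panel 2 from -0.80 to 0.62. Apart from Y1 on panel 2 and snoRNA202 on panel 1 in raw Ct, the values that changed sign were uncalled on both sides. The number of rows with an exact p under 0.05 in raw Ct, 2, was 0 to 9 with a sample left out, and that of panel differences, 1, was 0 to 3, although groups that were apart stay apart when a sample is removed. The panel difference of U6 ran from -0.24 to 0.017, above 0 without plaque 2 or plaque 3. Leaving out the centring lowered the log2 difference of every control row by the difference in miRNA mean, 2.70 cycles. Centring by panel moved all control rows of a panel by the same amount. Why values moved under the other alternatives was not tested.

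The 2 miRNAs called over the mean of the controls became 59 over the mean of the miRNAs, 17 over U87, 61 over Y1, 4 over snoRNA202, 5 over each panel's own controls, 5 among miRNAs detected in all samples, 95 with array weights (whose estimate stopped before it converged), and 2 to 61 with a sample left out. After the data were seen, the controls other than U6 (6 calls) and other than Y1 (2 calls) were added. With the replicate block, which treats same-numbered samples as pairs, the count was 42, and whether they are pairs is not known. The median of repeated wells was not run, because each control had 1 well on each panel. One well per control and panel leaves the error of a single reaction unmeasured, 4 samples a group cannot give an exact p under 0.029, and amplification efficiency is unknown.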
